A study of Mus musculus with 2 samples.

Results

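The genes examined here are 10 members of the gp130 cytokine pathway, out of 23628 genes listed in each library of *Sox9* GFPHi chondrospheres. They were chosen by name and fall into 3 ligands (*Lif*, *Il6* and *Osm*), 4 receptors (*Il6st*, *Lifr*, *Osmr* and *Il6ra*) and the kinase *Jak1*, the transcription factor *Stat3* and the inhibitor *Socs3*. All 10 were listed, and 8 of them had a mean of at least 1 CPM (read counts scaled to the same library total), the limit set here for comparing a gene between libraries. *Il6* and *Osm* fell below it.

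The data are RNA-sequencing of 2 libraries of 1 condition, labelled as replicates 1 and 2. Femoral heads of homozygous *Sox9* IRES-EGFP pups, in which GFP is made wherever the *Sox9* locus is transcribed, were digested at postnatal day 7. Live cells with the highest GFP and without CD31, Ter119 and CD45 were sorted and grown at low density in methylcellulose under reduced oxygen, where they formed colonies called chondrospheres. The culture medium of both libraries held serum, FGF2, BMP4, IGF1, TGF-β1 and LIF protein itself, so the part of added LIF in any level below cannot be told apart from the rest of the culture. Nothing in the labels ties a library to a pup, and the spread between the libraries may include technical differences. In bulk RNA, fewer cells that express a gene and less of its RNA per cell cannot be told apart either.

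Cytokines of the IL-6 family act through gp130, the shared receptor chain encoded by *Il6st*. Each cytokine brings gp130 together with a partner: LIF uses the LIF receptor (*Lifr*), oncostatin M uses the OSM receptor (*Osmr*), and IL-6 first binds its own alpha chain (*Il6ra*). The assembled receptors carry Janus kinases such as JAK1, which phosphorylate STAT3, and STAT3 in turn switches on genes that include *Socs3*, whose product shuts the receptor down. In joints, OSM and IL-6 are known for driving loss of cartilage matrix, while LIF is used in culture media to hold cells in an immature state.

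The files were sequenced to a similar depth. The smallest step between values implied 43300000 reads assigned to genes (replicate 1) and 42200000 (replicate 2), and 3 reads, taken as the limit of detection, correspond to 0.0693 and 0.0712 CPM. All 8 chondrocyte markers were present, with a total of 183883 CPM (replicate 1) and 128111 CPM (replicate 2), most of it from *Col2a1*. Relative to the median of all genes, as described below, 2 of the 8 were more than 2-fold lower in replicate 2, against 6.06% of all genes. In the CPM as deposited it was 1 of the 8, against 3.71%. Markers of the cells removed by the sort were low. Of 7 leukocyte markers listed, 3 were at 0 in both libraries, and the highest was *Cd14* at 2.68 and 3.42 CPM, while *Ptprc*, which encodes CD45, had 0.0231 and 0.0474 CPM. Of 5 endothelial markers, 4 were at 0, and the 4 erythroid markers summed to at most 0.1199 CPM. The 6 osteoblast and osteocyte markers reached a total of 2.94 CPM (replicate 1) and 50.2 CPM (replicate 2), with 5 of 6 higher in replicate 2, most of all *Dmp1* (0.116 and 40.4 CPM) and with *Sost* at 0. The 6 fibroblast markers summed to 1784 and 1058 CPM, nearly all of it from the collagen genes *Col1a1* (1166 and 584 CPM) and *Col3a1* (616 and 471 CPM), while *Pdgfra* had 2.03 and 2.71 CPM, *Thy1* and *Dpt* at most 0.208 CPM and *Pi16* was at 0. These sums move between the libraries alongside the differences described below, and their part in them was not tested.

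*Lif* was the only one of the 3 ligands transcribed above a trace. The gene, for leukemia inhibitory factor, spans bases 4257557 to 4272514 of chromosome 11 (build GRCm38, used for all positions here). Its level was 11.9 CPM (replicate 1) and 48.1 CPM (replicate 2), averaging 30.04 ± 25.6 CPM (SD, n = 2). The libraries therefore lay far apart, and the SD was nearly as large as the mean. The chondrospheres made their own *Lif* transcript in a medium to which LIF had been added.

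*Osm*, which encodes oncostatin M and lies next to *Lif* on chromosome 11 from 4236420 to 4241026, was listed at 0 in both libraries. At this depth that allows a level of up to 3 reads, 0.0693 CPM in replicate 1 and 0.0712 CPM in replicate 2. Only 16.5 kb separate the 2 genes, with no protein-coding gene in between. Per kilobase of exon, *Lif* was 90.0-fold higher in replicate 1 and 353-fold higher in replicate 2 than an *Osm* level of 3 reads. Against the upper end of the interval these folds would be smaller. *Osm* is known mainly as a product of leukocytes, whose markers are given above.

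*Il6*, which encodes interleukin 6 and spans bases 30013114 to 30019981 of chromosome 5, lay near the limit of detection. It had 0.0231 CPM in replicate 1, the value of 1 read, and 0.214 CPM in replicate 2, the value of 9 reads. The 95% exact Poisson interval ran from 0.000585 to 0.129 CPM in replicate 1 and from 0.0976 to 0.405 CPM in replicate 2. These intervals cover counting error only, and they overlap. In CPM, replicate 2 exceeded replicate 1 by a ratio of 9.24, whose exact interval ran from 1.28 to 405.

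**Figure D1:**
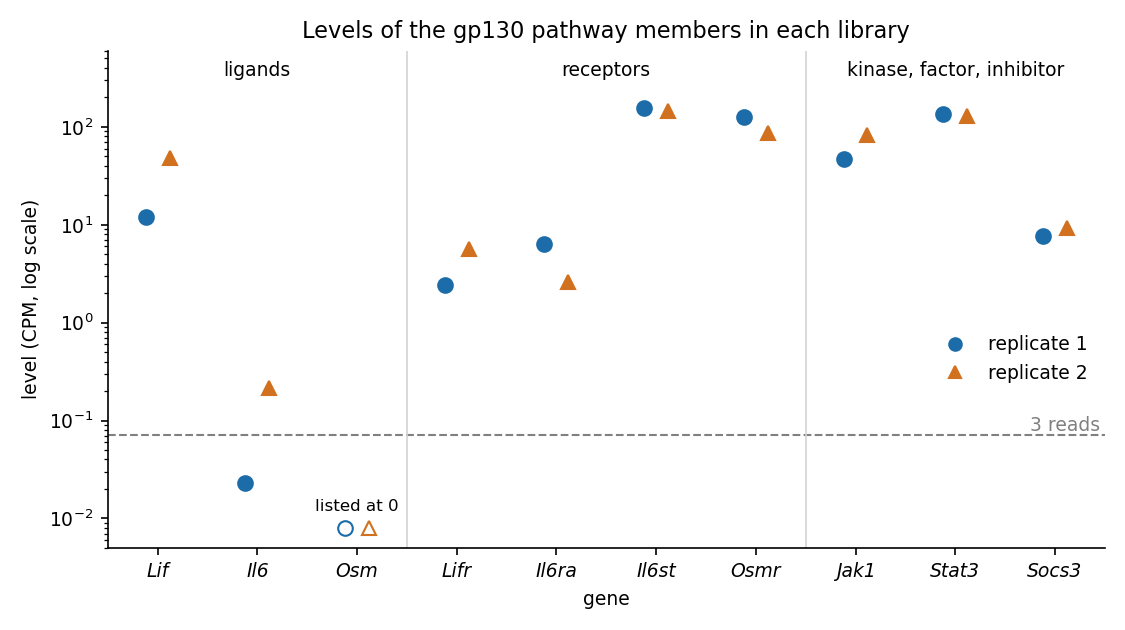
Level of each of the 10 genes in CPM (vertical axis, log scale) in replicate 1 (circles) and replicate 2 (triangles), grouped by role; open symbols at the bottom mark *Osm*, listed at 0, and the dashed line marks 3 reads. *Il6st*, *Osmr* and *Stat3* sit near 100 CPM, *Lifr* and *Il6ra* sit between 2.43 and 6.36 CPM, and *Lif* differs most between the libraries among the genes above 1 CPM.

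The receptors were unequal in level. *Il6st*, the gp130 gene, at bases 112464070 to 112510086 of chromosome 13, reached 157 CPM (replicate 1) and 145 CPM (replicate 2), averaging 151 ± 8.44 CPM (SD, n = 2). The 2 libraries differed little for this gene. *Osmr*, at bases 6813577 to 6874969 of chromosome 15, had 126 and 87.0 CPM, averaging 107 ± 27.5 CPM (SD, n = 2). Both genes were thus transcribed at around 100 CPM in each library.

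The partner of gp130 for LIF was scarce by comparison. *Lifr*, the neighbour of *Osmr* at bases 7090614 to 7197489 of chromosome 15, had 2.43 CPM (replicate 1) and 5.69 CPM (replicate 2), averaging 4.06 ± 2.31 CPM (SD, n = 2). *Il6ra*, the alpha chain for IL-6, at bases 89864059 to 89913196 of chromosome 3, had 6.36 and 2.58 CPM, averaging 4.47 ± 2.68 CPM (SD, n = 2). The 2 low receptors changed places between the libraries. *Il6ra* was the higher of the pair in replicate 1 and *Lifr* in replicate 2.

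Levels of different genes were compared per kilobase of annotated exon, since a longer transcript collects more reads, and 0.1 CPM was added to each level before a ratio was taken. On this scale *Il6st* exceeded *Lifr* 60.5-fold in replicate 1 and 24.4-fold in replicate 2, which is 5.26 ± 0.93 on the log2 scale (SD, n = 2). It exceeded *Il6ra* 19.0-fold and 42.3-fold, a log2 ratio of 4.82 ± 0.82. Both ratios were several times their spread between the libraries. *Lifr* lay below *Osmr* in both libraries, with a log2 ratio of -5.47 in replicate 1 and -3.74 in replicate 2, so that *Osmr* was 44.4-fold and 13.4-fold higher. Divided by the longest coding transcript, it was 87.8-fold and 26.4-fold higher, so the direction did not depend on the length but the size did. The mean of -4.61 was larger in size than its SD of 1.22. Of the neighbouring receptor genes, which lie 216 kb apart, it was the OSM receptor that was abundant and the LIF receptor that was scarce, and of the neighbouring ligand genes it was *Lif* that was transcribed and *Osm* that was not detected.

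The place of *Osmr* against *Il6st* depended on the length used. Divided by exonic length, *Osmr* was at 0.734 of the *Il6st* level in replicate 1 and 0.549 in replicate 2. Divided by the longest coding transcript, *Osmr* had 22.9 and *Il6st* 18.1 CPM per kb in replicate 1, against 15.9 and 16.8 in replicate 2, so the order turned in replicate 1. *Lifr* and *Il6ra* stayed below 1 CPM per kb by either length.

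*Il11ra1*, which encodes the IL-11 receptor alpha chain and is no member of the 10, was the remaining receptor of the family above a trace, at 30.6 and 26.7 CPM. Mice carry near-identical copies of this gene, so its level is uncertain. Of the summed CPM per kb of *Il6st*, *Osmr*, *Il11ra1*, *Il6ra* and *Lifr*, *Il6st* took 43.8% in replicate 1 and 48.3% in replicate 2, *Osmr* took 32.1% and 26.5%, and *Il11ra1* took 21.13% and 22.1%. *Il6ra* took 2.27% and 1.101%, and *Lifr* took 0.695% and 1.95%. By exonic length, the order of the 3 larger shares was the same in both libraries. Shares by the longest coding transcript were not computed. By that length *Osmr* stood above *Il6st* in replicate 1, as given above. *Il11ra1* has 4471 exonic bases against 2009 in that transcript, so its share depends on the length too.

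**Figure D2:**
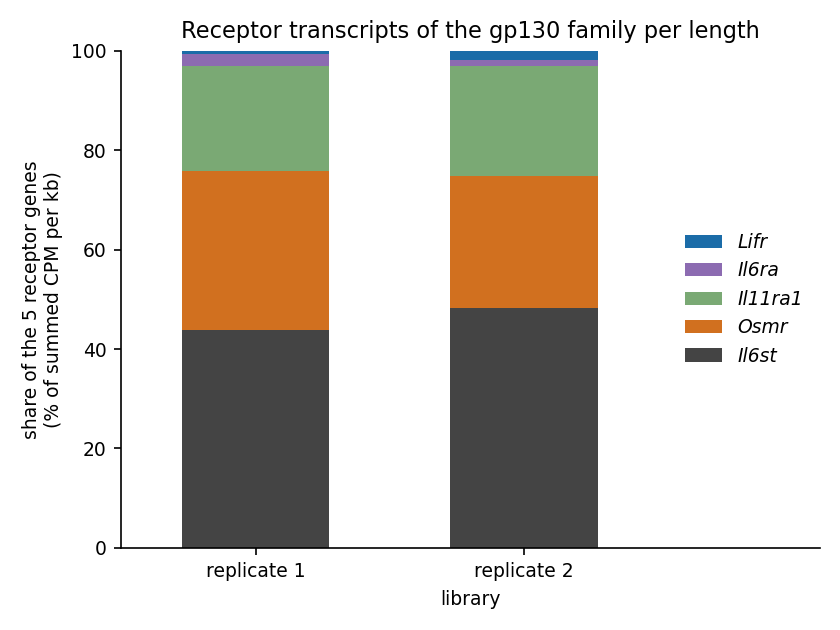
Share of each of 5 gp130 family receptor genes in their summed CPM per kb of exonic length (vertical axis, %), as stacked bars for replicate 1 and replicate 2. *Il6st*, *Osmr* and *Il11ra1* fill nearly the whole of both bars, and *Il6ra* and *Lifr* are the thin bands at the top, 2.27% and 0.695% in replicate 1 and 1.101% and 1.95% in replicate 2.

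Against the ligands among the members, the 4 receptors together were 8.93-fold higher per kilobase in replicate 1 and 1.88-fold higher in replicate 2. This is 2.03 ± 1.59 on the log2 scale (SD, n = 2). The direction was the same in both libraries for these genes. The receptors summed to 292 and 241 CPM, and the ligands, nearly all *Lif*, to 11.97 and 48.3 CPM. Other gp130 ligands were left out, and the direction with them was not computed. Among those, *Il11* had 0.633 and 21.3 CPM per kb, against 14.2 and 13.1 for *Il6st*. *Lif* itself was 11.8-fold and 20.6-fold higher per kilobase than *Lifr*.

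Inside the cell, *Stat3* was among the more abundant transcripts and was steady between the libraries. At bases 100885098 to 100939540 of chromosome 11, it reached 134 CPM (replicate 1) and 128 CPM (replicate 2), averaging 131 ± 4.35 CPM (SD, n = 2). Per kilobase, only 8.20% and 10.6% of the genes with a known length lay above it. *Stat3* and *Il6st* were within 0.04 of each other on the log2 scale per kilobase in each library.

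*Jak1*, which encodes the kinase that the receptors carry, spans bases 101152367 to 101265282 of chromosome 4. Its level was 47.4 CPM (replicate 1) and 82.8 CPM (replicate 2), averaging 65.1 ± 25.1 CPM (SD, n = 2). Per kilobase, *Stat3* exceeded *Jak1* 2.15-fold in replicate 1 and 1.17-fold in replicate 2. The log2 ratio of 0.67 ± 0.62 (SD, n = 2) was barely larger than its spread.

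*Socs3* was low beside *Stat3*. At bases 117966079 to 117970047 of chromosome 11, it had 7.72 CPM (replicate 1) and 9.23 CPM (replicate 2), averaging 8.47 ± 1.07 CPM (SD, n = 2). The 2 libraries were close. Its log2 ratio to *Stat3* per kilobase was -2.38 in replicate 1 and -2.06 in replicate 2, a mean of -2.22 ± 0.23 (SD, n = 2), so *Stat3* was 5.22-fold and 4.17-fold higher. This ratio had the smallest spread of the 6 that were set out for the pathway, each spread resting on 2 libraries. *Lif* differed 4.03-fold in CPM between the same libraries, and a relation between *Lif* and *Socs3* was not tested.

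Ordered by mean CPM per kb, the members ran *Stat3* (13.8), *Il6st* (13.6), *Jak1* (9.01), *Osmr* (8.79), *Lif* (6.91), *Socs3* (2.93), *Il6ra* (0.517), *Lifr* (0.377), *Il6* (0.0487) and *Osm* (0). Of the 7 neighbouring pairs among the 8 genes above the limit, 2 differed by more than their spread between the libraries. These were *Il6st* above *Jak1*, by a log2 ratio of 0.651 against an SD of 0.649, and *Socs3* above *Il6ra*, by 2.62 against 1.08. The other 5 pairs did not differ beyond their spread, and in all of them but *Lif* and *Socs3* the order turned between the libraries. Divided by the longest coding transcript, an alternative added after the values had been seen, *Il6st* exceeded *Jak1* by 0.45 against an SD of 0.65, with the order turned in replicate 2, so that call was lost. On that scale *Osmr* (19.4) stood above *Il6st* (17.4) and *Jak1* (13.3), while *Socs3* remained above *Il6ra*, by 2.80 against 1.08. A call was gained for *Jak1* above *Lif*, by 1.095 against an SD of 0.846, so 2 of 7 neighbouring pairs again differed beyond their spread.

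The libraries are of 1 condition, so the differences between them show how far these levels vary and carry no test. Over the 12631 genes whose mean reached 1 CPM, the log2 ratio of replicate 2 to replicate 1, with 0.1 CPM added to each value, had a median of 0.30. Ratios are given relative to this median, and a fold on this scale understates the difference of low genes. By this measure 13.5% of all genes lay more than 2-fold apart, 7.43% higher and 6.06% lower in replicate 2. In the CPM as deposited it was 15.1%, with 11.4% higher and 3.71% lower. Of the 8 members above the limit, 2 lay more than 2-fold apart. *Lif* was higher in replicate 2 by 1.70 on the log2 scale, or 3.24-fold, and *Il6ra* was lower by a log2 ratio of -1.57. The other 6 lay within 2-fold, from -0.84 for *Osmr* to 0.89 for *Lifr*, which was past 2-fold in the CPM as deposited at 1.198. The median of the 8 was -0.21. The sampling error of reads was small beside these values, with a standard error of at most 0.169 on the log2 scale among the 8. For *Socs3* the direction depended on the scale, at 0.26 as deposited and -0.05 relative to the median.

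Other ligands that act through gp130 were present. Of 9 on the list, 7 were listed and 5 had at least 1 CPM. *Il11*, which encodes interleukin 11, had 1.32 CPM (replicate 1) and 44.2 CPM (replicate 2). It was thus far higher in replicate 2, by 4.66 on the log2 scale relative to the median, and it lay below *Lif* per kilobase in replicate 1 and above it in replicate 2. *Cntf*, *Ctf1* and *Clcf1* lay between 3.92 and 14.0 CPM and within 2-fold between the libraries. *Ebi3* was listed at 0.

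Of the other receptors of the family, 4 were listed and *Il11ra1* alone had at least 1 CPM. *Lepr*, the leptin receptor, had 0.0231 and 0.119 CPM, the value of 1 and 5 reads, and *Cntfr* had 0.0231 and 0.0237 CPM, the value of 1 read in each library. *Il31ra* was listed at 0.

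The other kinases and factors were expressed broadly. Of the 9 remaining Janus kinases and STATs, 8 had at least 1 CPM, and *Stat6* (38.9 and 59.4 CPM) and *Jak2* (31.7 and 46.5 CPM) were the highest per kilobase. *Stat3* was 1.59-fold above *Stat6* per kilobase in replicate 1 and level with it in replicate 2, at 0.996. *Jak3*, known mainly from lymphocytes, had 25.5 and 14.9 CPM, and *Stat2* had 13.6 and 7.24 CPM. These 2 of the 8 lay more than 2-fold lower in replicate 2 relative to the median, at -1.08 and -1.20, against 6.06% of all genes. In the CPM as deposited they did not.

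Of 14 inhibitors other than *Socs3*, 12 had at least 1 CPM, led per kilobase by *Pias2* (33.8 and 50.7 CPM) and *Pias3* (31.5 and 30.4 CPM), which encode inhibitors of activated STAT proteins. Of the 12, only *Socs2* was more than 2-fold apart, against 13.5% of all genes. It had 6.98 and 22.1 CPM, or 1.34 relative to the median. In the CPM as deposited, *Socs5* was past 2-fold as well, at 13.1 and 31.8 CPM. *Socs1*, a close relative of *Socs3* that also binds Janus kinases, had 3.90 and 3.65 CPM, and *Cish*, a target of STAT5, had 0.658 and 0.190 CPM. Among the 6 genes of the arm that leads from gp130 through the phosphatase SHP2 to MAP kinases, none was more than 2-fold apart. Against 13.5% of all genes, lists this small cannot be told apart from that share. *Shc1* (65.1 and 118 CPM) and *Grb2* (34.4 and 52.9 CPM) were the highest of the 6 per kilobase. Of the 2 proteases that can cut cytokine receptors from the cell surface, *Adam10* was higher in replicate 2 (21.5 and 77.1 CPM, 1.53 relative to the median), and *Adam17* had 27.1 and 33.3 CPM.

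**Figure D3:**
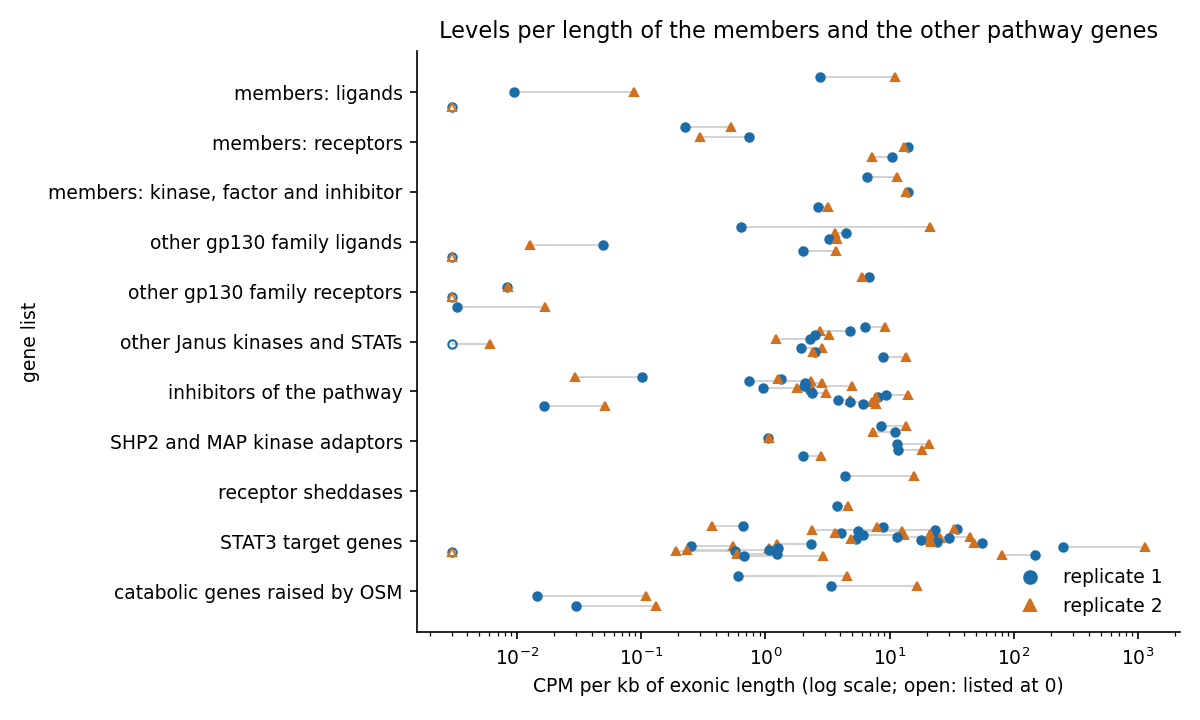
CPM per kb of exonic length (horizontal axis, log scale) of the listed genes by role, with replicate 1 as circles, replicate 2 as triangles and a line joining the values of a gene; open symbols mark genes listed at 0. Most kinases, inhibitors and adaptors lie between 1 and 20 CPM per kb, and *Timp1* stands at 251 and 1139.

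Genes known as STAT3 targets in other cells differed between the libraries in both directions. Of the 24 on the list other than *Socs3*, 22 had at least 1 CPM. Between the libraries 3 were more than 2-fold higher in replicate 2 and 6 lower, which is 40.9% of the 22 against 13.5% of all genes. In the CPM as deposited 6 were higher and 3 lower. The list was chosen with earlier results of these data known, so the excess over all genes is no test. The median of the 22 was -0.45, beside 0 for all genes by construction. Per kilobase, *Timp1*, the tissue inhibitor of metalloproteinases, was the highest of them in both libraries, at 223 and 1011 CPM. It was followed by *Serpina3n*, a serine protease inhibitor of the acute phase, at 303 and 166 CPM. These 2 differed in opposite directions.

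The other targets higher in replicate 2 were *Ccnd1*, the gene of cyclin D1 (54.2 and 207 CPM), and *Il4ra* (4.04 and 17.6 CPM). *Fos*, an immediate early gene, was lower, with 54.3 and 5.599 CPM, or -3.56 relative to the median. *Icam1* had 10.2 and 5.41 CPM. The remaining 3 that were lower rested on low levels: *Bcl3* with 1.64 and 0.925, *Lcn2* with 1.502 and 0.498 and *Hp* with 2.01 and 0.949 CPM. *Saa3*, an acute phase gene, was listed at 0.

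In CPM, the 4 genes for matrix-degrading enzymes that OSM is known to raise were all higher in replicate 2. So were most of the 12631 genes whose mean reached 1 CPM, with a median log2 ratio of 0.30. Only 2 of the 4 reached the limit for comparing libraries. *Mmp13*, the main collagenase of mouse cartilage, had 8.96 and 44.8 CPM and *Mmp3*, stromelysin 1, had 1.09 and 8.13 CPM, or 2.004 and 2.49 relative to the median. *Adamts5* and *Adamts4*, which encode aggrecanases, stayed under the limit of a mean of 1 CPM, at 0.323 and 1.42 and at 0.0693 and 0.522 CPM. *Osm* was listed at 0 in the same libraries, and whether OSM has a part in these differences was not tested. Over all the lists beside the 10 members, 17 of 58 genes (29.3%) were more than 2-fold apart, 9 higher and 8 lower, against 13.5% of all genes. In the CPM as deposited 13 were higher and 3 lower. The same limit holds for these lists, which were chosen with earlier results of these data known.

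**Figure D4:**
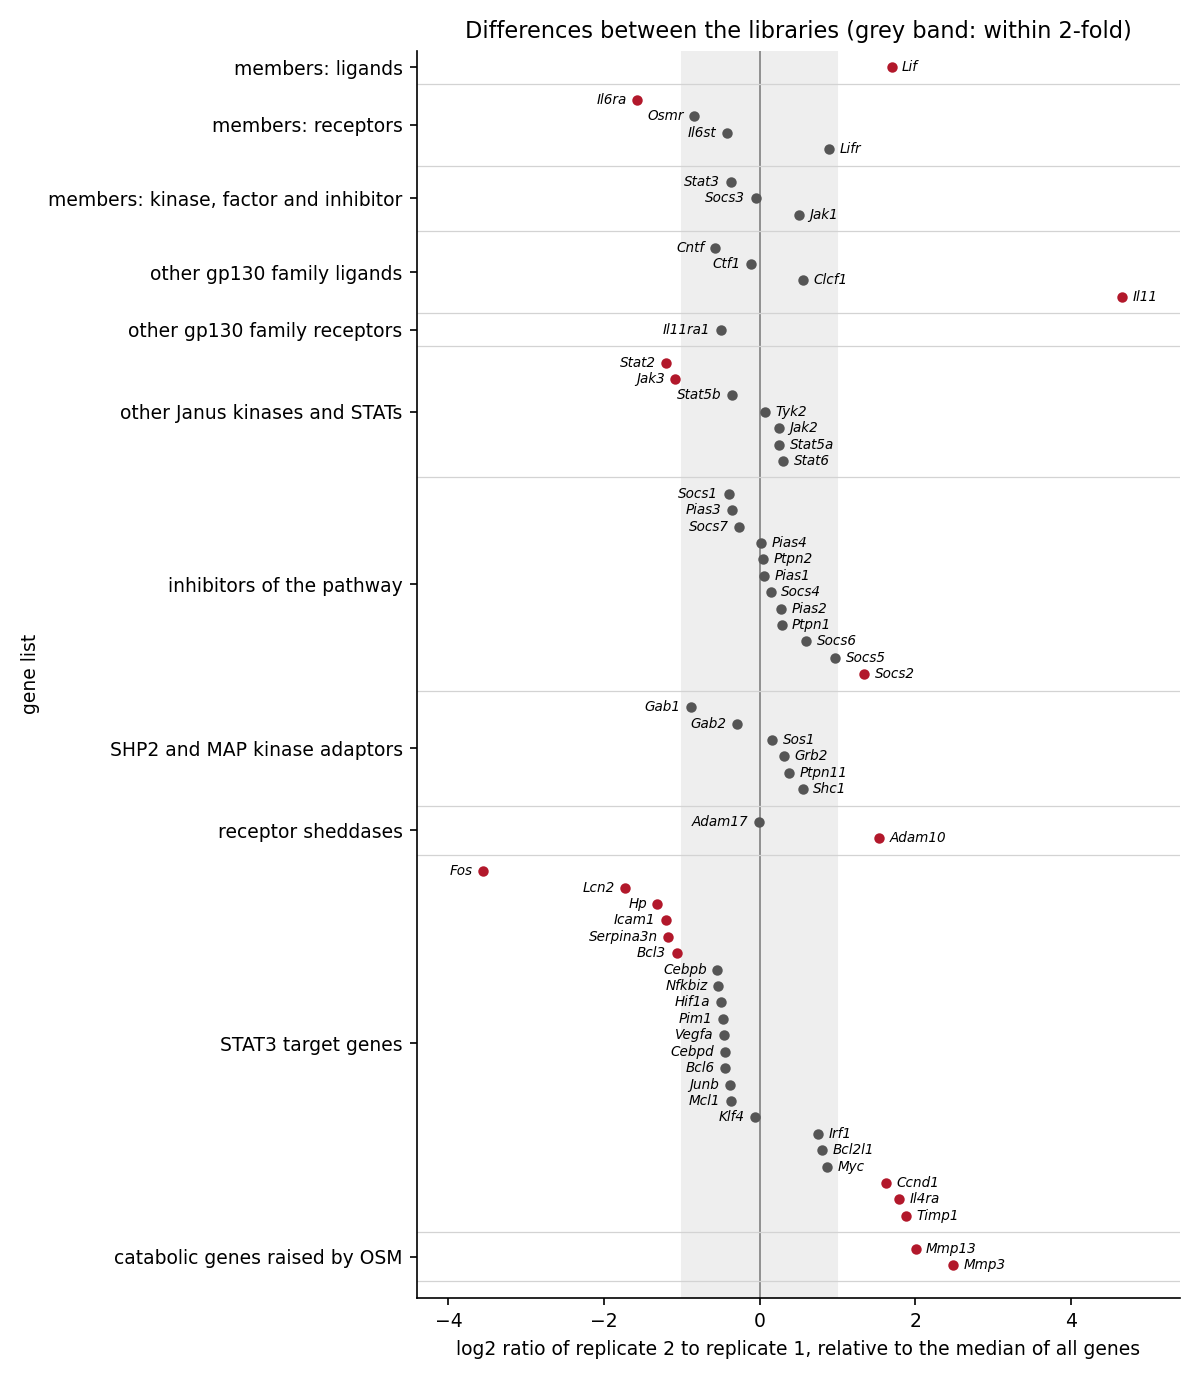
Log2 ratio of the second library to the first, less the median over all genes (horizontal axis), for the listed genes whose mean reached 1 CPM, by role, with genes within 2-fold in the grey band and those past it in red. *Lif* and *Il11* stand to the right at 1.70 and 4.66, *Il6ra* to the left at -1.57, and *Stat3*, *Socs3* and *Il6st* stay within the band.

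Sequences upstream of these genes were read from RefSeq on GRCm38.p6, as 300-base windows from 250 bases before a start to 50 after it. Of the 83 genes on the lists, members included, 62 had a window, as had 9 of the 10 members. The letters TTCNNNGAA, a core that STAT factors are known to bind and which reads the same on both strands, occurred in 8.30% of all 32851 windows. They occurred in 10.7% of the 84 windows of the listed genes, and *Socs3* was the only member that held them. The sites of *Socs3* and of 3 other listed genes are shown because they let the letters be compared, each from 5′ to 3′ on the strand of the gene with the core in capitals and 10 bases on either side.
Socs3: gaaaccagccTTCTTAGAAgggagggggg
Cish: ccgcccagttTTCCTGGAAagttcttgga
Irf1: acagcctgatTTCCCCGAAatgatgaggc
Icam1: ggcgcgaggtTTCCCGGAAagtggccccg

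The *Socs3* stretch lies at chr11:117969502-117969530 on the minus strand, and its core begins 154 bases before the start. The *Cish* stretch lies at chr9:107296649-107296677, that of *Irf1* at chr11:53769914-53769942 and that of *Icam1* at chr9:21015888-21015916, all on the plus strand. In these libraries *Irf1* was higher in replicate 2 (1.004 and 2.19 CPM, within 2-fold relative to the median) and *Socs3* was close to equal. *Icam1* and *Cish* were lower, *Cish* below the limit of a mean of 1 CPM. Of the 7 listed genes with the letters, the others that reached that limit lay below the median but within 2-fold. Whether genes with the letters share a direction was not tested.

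A second set of letters, TGANTCA, which AP-1 factors such as FOS are known to bind, was chosen after the values had been seen. It also reads the same on both strands, and it occurred in 7.81% of all windows and in 9.52% of those of the listed genes. Among the members, *Lif*, *Il6* and *Osmr* held it. No listed gene held both sets of letters. The stretches of *Lif* and *Osmr* are shown beside those of *Il11*, *Mmp3* and *Mmp13*, which like *Lif* were more than 2-fold higher in replicate 2. The letters also occurred in *Cntf* and *Shc1*, which lay within 2-fold.
Lif: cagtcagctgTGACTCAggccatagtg
Osmr: gccccgtagtTGATTCAtagctggggc
Il11: ggagggagggTGAGTCAggatgtgtca
Mmp3: gaagcaattaTGAGTCAgttttcgggt
Mmp13: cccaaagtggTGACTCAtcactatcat

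The *Lif* stretch lies at chr11:4257330-4257356 on the plus strand, with its letters starting 228 bases before the start, and that of *Osmr* at chr15:6874294-6874320 on the minus strand, just after the start. Those of *Il11* (chr7:4778223-4778249, minus strand), *Mmp3* (chr9:7445766-7445792) and *Mmp13* (chr9:7272469-7272495, both plus strand) begin 98, 46 and 35 bases before it. *Osmr*, with T as the middle letter where the others shown have C or G, was lower in replicate 2. *Lif*, *Il11*, *Mmp3* and *Mmp13* were higher. As *Il11*, *Mmp3* and *Mmp13* were shown for that reason, no relation of letters and direction can be read from these genes. A match of letters is a description and not a binding site, and the windows leave out most of the sequence that could control a gene.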

How the data were processed

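RNA-sequencing values of 2 libraries of 1 group were used. The authors selected poly(A) RNA, made stranded libraries, aligned single-end reads with STAR 2.7.3a to GRCm38 with GENCODE M25, assigned them to genes with Partek E/M in Partek Flow 10.0.21.0801 and deposited CPM. The deposited CPM values carry an offset of 0.0001, which was subtracted here. Under 1 CPM, 63.8% of the values (replicate 1) and 62.9% (replicate 2) came to a whole number of reads within 0.02 reads, so no count model was fitted.

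The mean and SD per gene, log2 ratios between genes in each library and log2 ratios between the libraries (0.1 CPM added) were computed. With 1 condition there is no test between groups. Lengths and coordinates come from GENCODE M21 on the same build, an earlier release, in which 97.2% of the 23628 names had 1 gene. Of the 73 other pathway genes, 3 are not analysed here, as the files list no such name. Exons of *Stat3* share 72 bases with *Stat5a* on the opposite strand, those of *Il6ra* 242 with *Gm42809* and those of *Jak1* 4 with *Raver2*. Whether the counting used strand is not given in the sources used here.

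The members and lists were chosen with earlier results of these data known. All members are named, and of each other list the 2 genes highest per length and those past 2-fold, with others named after their values were seen. The calculation was tested on simulated data. Alternatives covered the length, pseudocount, scaling, filter and leaving out each library. Protein motifs were not searched. Some genes of the lists enter the counts but are not reported here by name or drawn. The software was numpy 2.4.6, scipy 1.17.1, pandas 2.3.3 and matplotlib 3.10.9 under Python 3.11.15.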

Additional observations from a re-analysis of the deposited data

How the results depend on the processing

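For 18 results, 90 values were recomputed with 1 choice changed each. No log2 ratio between genes among these 18 results changed sign, and direction was not scored for the levels and counts. Ratios outside them were not scored. That of *Osmr* to *Il6st* did change sign, from a mean of -0.656 by exonic length to 0.131 by the longest coding transcript. That of *Il6st* to *Jak1* did so in replicate 2, as given above. Of the 90 values, 80 stayed within 1 SD of the reported value (for counts, within 1.5 times) and 10 moved by more. Leaving out 1 of 2 libraries accounts for 32 of the 90 and moves a mean by less than its SD by arithmetic. The log2 ratio of *Socs3* to *Stat3* went from -2.22 to -2.70 when the longest coding transcript gave the length and to -3.94 with no division by length. The number of members more than 2-fold apart went from 2 to 1 when a mean of at least 10 CPM was asked, because *Il6ra* then drops out, and to 3 with no centring, which adds *Lifr*, or with no filter on low values, which adds *Il6*. The count of 17 other pathway genes ranged from 12 to 21. A total that omits the 10 most abundant genes is smaller by construction, and it put the levels of 7 members higher by more than their SD, at 250.1 CPM for *Il6st* and 13.9 CPM for *Socs3*. No paired analysis was possible because both libraries belong to 1 group. With 2 libraries, an SD is itself poorly known.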

Other observations

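The letters that AP-1 binds led to a look at the 7 genes of the FOS and JUN families, chosen after the values had been seen. They were not steady between the libraries. *Fosl1*, which encodes FRA1, had 0.722 CPM (replicate 1) and 20.5 CPM (replicate 2), or 4.34 on the log2 scale relative to the median of all genes. *Fos* (54.3 and 5.599 CPM) and *Fosb* (68.6 and 4.27 CPM), which are induced within minutes of a stimulus, went the other way, at -3.56 and -4.28. *Jun* had 62.1 and 20.1 CPM and *Jund* 124 and 72.3 CPM, at -1.92 and -1.08. *Fosl2* (84.3 and 106 CPM) and *Junb* (80.3 and 76.0 CPM) lay within 2-fold. The same library that had more *Fosl1* had more *Lif*, *Il11*, *Timp1* and *Mmp13*, and with 2 libraries no relation between these genes can be tested.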
